A study of Rattus norvegicus with 21 samples.

Results

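The genes of potassium channels and of the hyperpolarization-activated HCN channels were followed in single hippocampal neurons of the rat. Members were all symbols of the expression table that open with Kcn or Hcn followed by a letter or digit, with case ignored, and for a symbol with several rows the row with the highest mean was taken. This gave 91 symbols out of 16245 in the table. The 49 symbols that were above 0 in at least 3 of the 21 neurons were kept, out of 7927 such symbols in all. Of the other 42, 22 were at 0 in every neuron, 10 were above 0 in 1 neuron and 10 in 2 neurons.

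Each sample is the aspirated content of 1 neuron, taken after patch-clamp recording and amplified from polyadenylated RNA. All neurons were hippocampal, from embryonic day 18 Wistar rats of the VGAT-venus line, in which a fluorescent protein marks GABAergic neurons, and all had spent 17 days in vitro. Cultures with their glial cells left in place gave 5 pyramidal and 6 GABAergic neurons. The purified cultures received the antimitotic agents FdU and U at 5 µM from 24 h after dissection, removed after 36 h, and 5 GABAergic neurons came from these. Another 5 GABAergic neurons came from cultures purified in the same way and given medium conditioned by rat oligodendrocytes (OCM) from day 3 in vitro. OCM-treated neurons therefore carry the antimitotic treatment as well, and no group had the medium without it. Since no label ties a neuron to its animal or dish, each group counts as 1 sample: there is no test, p-value or standard error, and an SD or range here covers the neurons of a group only. Neurons are numbered within their group.

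Between 1817671 and 25160911 reads were recovered per neuron, and 2540 to 8652 rows of the table were above 0. Gad1, Gad2 or both, the enzymes of GABA synthesis, were above 0 in each of the 16 GABAergic neurons, and Slc17a7, the vesicular glutamate transporter of pyramidal cells, was at 0 in all of them. Gad1 and Slc32a1 were at 0 in all pyramidal neurons, while Gad2 was at 924 and 714 in numbers 1 and 2. Slc17a7 was above 0 in pyramidal neurons 1, 2, 4 and 5 and at 0 in pyramidal neuron 3. Pyramidal neurons 3 and 4 held the most transcripts of oligodendrocytes (Mbp at 278859 and 95386). Neuron 3 also held those of microglia (Aif1 at 12526) and astrocytes (Gfap at 1445). Neuron 4 had C1qa, a microglial gene, at 123. Glial genes were above 0 in other neurons too, such as Mbp at 959 and 609 in glia-cultured GABAergic neurons 3 and 5. Sample titles open with letters of unstated meaning, S, P or ech, that are spread unevenly: all 5 OCM-treated neurons and 4 of 5 purified neurons are titled S, but only 1 of the 6 glia-cultured GABAergic neurons, number 6, is. Printed differences that turned direction, or moved by over 1.5 times, when only neurons of 1 letter were compared are given with that value.

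Potassium channels set the resting potential, repolarize the action potential and shape how often a neuron can fire. Voltage-gated families (Kcna, Kcnb, Kcnc, Kcnd, Kcnh, Kcnq) open on depolarization, inward rectifiers (Kcnj) and tandem-pore leak channels (Kcnk) act near rest, and Kcnma and Kcnn channels respond to calcium. Kcnip, Kcnab, Kcnmb and Kcne genes encode auxiliary subunits, and Hcn channels pass a mixed cation current that opens on hyperpolarization and paces rhythmic activity.

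**Figure D1:**
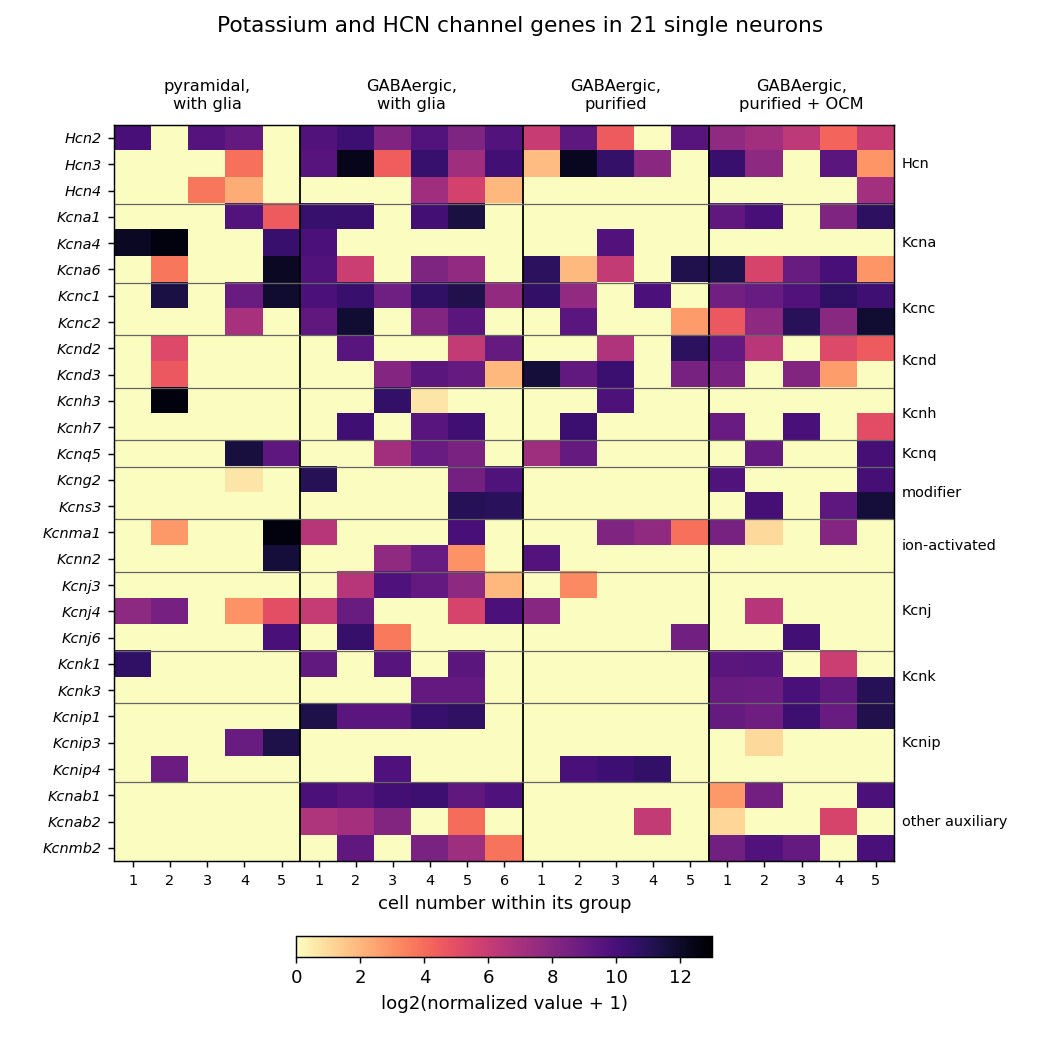
Heat map of log2(normalized value + 1) for the 28 channel genes named by rule (rows, by subfamily) in the 21 neurons (columns, numbered within their group). Pale cells are at 0. Kcnip1 and Kcnk3 are dark in all 5 OCM-treated neurons and pale in all 5 purified and all 5 pyramidal neurons, and Kcnab1 is dark in all 6 glia-cultured GABAergic neurons.

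More channel genes were detected in GABAergic neurons grown with glia or given OCM than in purified or pyramidal neurons, by the medians of the groups. Of the 91 symbols, 15 to 46 were above 0 per glia-cultured GABAergic neuron (median 23), 7 to 17 per purified neuron (median 10), 13 to 28 per OCM-treated neuron (median 22) and 6 to 18 per pyramidal neuron (median 15). The ranges of all pairs of groups overlapped. Glia-cultured and OCM-treated neurons had no stable order: in a check added after seeing the data, the former median was 21 without neuron 3, 4 or 5, and the glia-cultured neuron titled S had 15. Over the 49 kept genes, 147 of 294 pairs of a gene and a neuron were above 0 in glia-cultured GABAergic neurons, 105 of 245 (42.9%) in OCM-treated, 54 of 245 (22.0%) in purified and 56 of 245 (22.9%) in pyramidal neurons. Without glia-cultured neuron 5 the first count was 107 of 245. No gene was above 0 in all 21 neurons, and the most often detected one, Hcn2, was above 0 in 18.

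These counts tended to move with how many genes a neuron showed in general, with exceptions. Glia-cultured GABAergic neurons had 3760 to 8652 rows above 0 and purified neurons 2573 to 4065. Set against that total, the channel genes made up 3.61 to 5.59 per 1000 detected rows in glia-cultured GABAergic neurons, 2.64 to 4.35 in purified, 3.26 to 5.27 in OCM-treated and 2.24 to 5.91 in pyramidal neurons. After every neuron was thinned to the smallest read total, the counts of channel genes were 14 to 38, 7 to 17, 13 to 25 and 5 to 16 in the same order. The part of general detection in the group values was not tested.

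**Figure D2:**
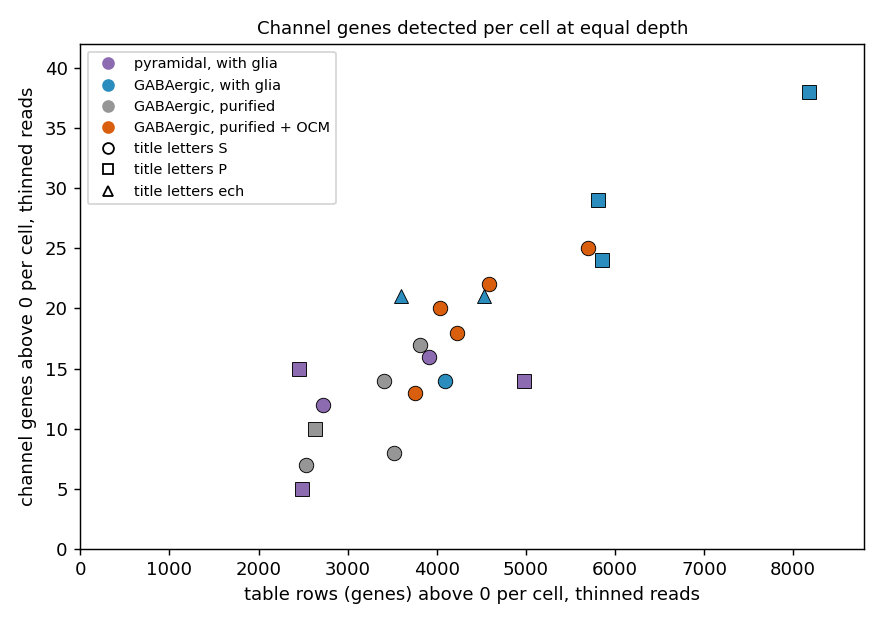
Number of the 91 channel genes above 0 (vertical axis) against the number of all table rows above 0 (horizontal axis) per neuron, both after thinning to 1817671 reads. Colours mark the groups and symbols the title letters. Neurons with more detected rows tended to have more channel genes, but not all did. Pyramidal neuron 4 had 4984 rows and 14 channel genes, and glia-cultured GABAergic neuron 2 had 3601 rows and 21. Glia-cultured GABAergic neuron 5, with 8176 rows and 38 channel genes, lies farthest out.

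Group differences below are means over neurons of log2 of the normalized value plus 1, the first group minus the second, over genes above 0 in at least 3 neurons of the pair of groups. On this scale a difference largely follows whether a gene was detected, and a 0 may be an absent transcript or one lost in aspiration or amplification, which cannot be told apart. A gene that passed only through the group where it is high had to differ, so the counts are descriptions, to be read against all genes. The comparisons share groups and are not independent of each other.

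In pyramidal against glia-cultured GABAergic neurons, 36 channel genes entered, with a median difference of -3.01 against -2.05 for all genes. Of these, 1 was higher by at least 2 and 23 were lower by at least 2, or 2.78% and 63.9%, where 7.47% and 50.6% of all genes were. In purified against glia-cultured GABAergic neurons, 36 entered with a median of -2.99 against -2.13 for all genes, and 2 were higher and 24 lower by at least 2, or 5.56% and 66.7% against 5.73% and 51.7% of all genes. In OCM-treated against purified neurons, 26 entered with a median of 2.20 against 1.40 for all genes, and 13 were higher and 2 (7.69%) lower, against 39.3% and 10.1% of all genes. In OCM-treated against glia-cultured neurons, 39 entered with a median of -0.53 against -0.72 for all genes, and 5 were higher and 11 lower, or 12.8% and 28.2% against 11% and 30.4% of all genes. The channel genes thus went the way of all detected genes in each comparison.

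The title letters touch all 4 comparisons. With neurons titled P only, 2 channel genes instead of 1 were higher by at least 2 in pyramidal neurons. The median was then -3.21, against -2.98 for all genes. With neurons titled S only, purified against glia-cultured neurons (4 against 1) had a median of 0.00, against 0.00 for all genes. OCM-treated against glia-cultured neurons (5 against 1) had a median of 1.81, against 0.39 for all genes. For OCM-treated against purified neurons titled S (5 against 4), the median was 2.82, against 1.11 for all genes, with 16 higher and 3 lower. Without pyramidal neurons 3 and 4, 6 channel genes were higher by at least 2 in pyramidal neurons instead of 1. The median was then -2.41, against -2.46 for all genes. In the last comparison the count of higher genes was 3 without OCM-treated neuron 4, 2 without glia-cultured neuron 3 and 3 without glia-cultured neuron 6. Leaving out glia-cultured neuron 3 also gave 2 higher genes instead of 1 in the pyramidal comparison. The counts in this paragraph have no share of all genes beside them, so they show only how the main counts changed.

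**Figure D3:**
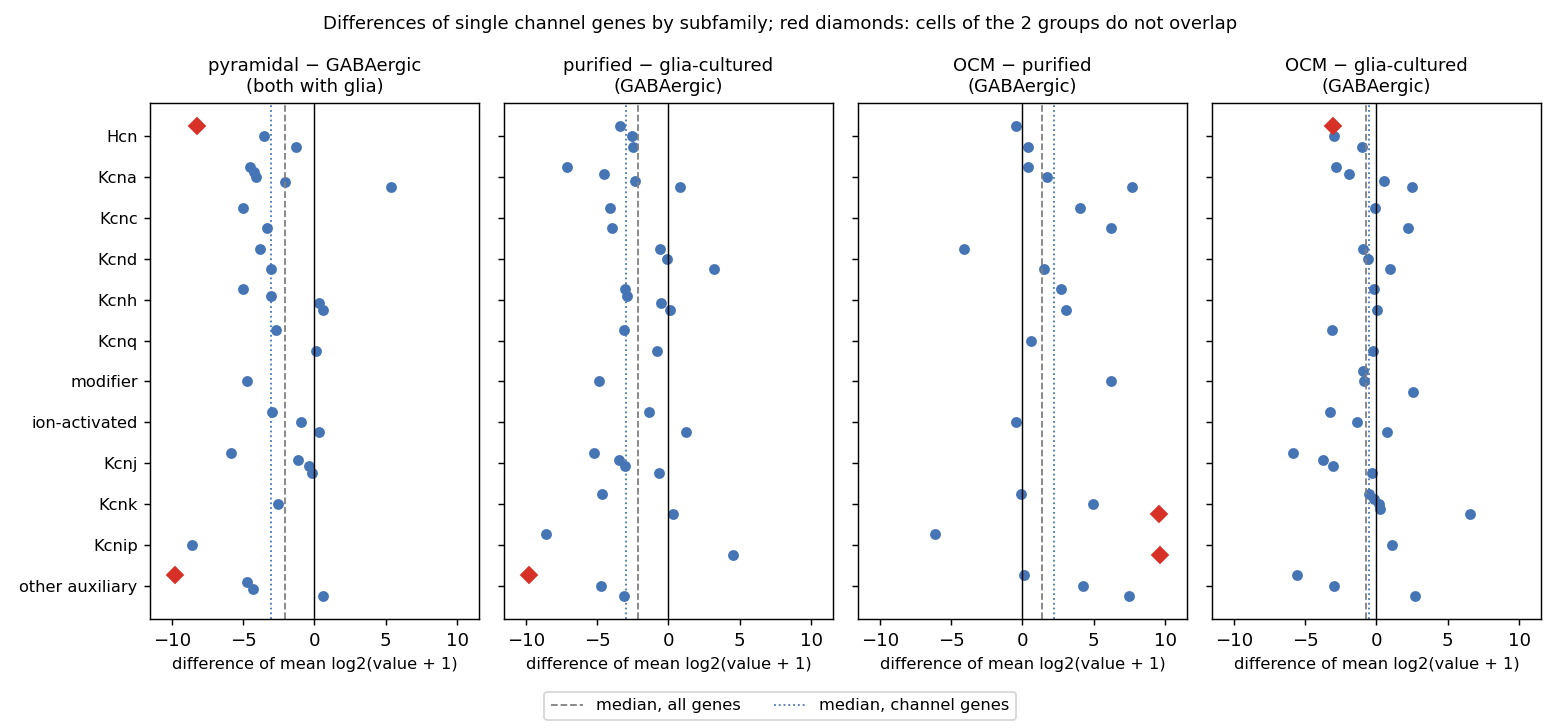
Differences of group means of log2(normalized value + 1) for 45 of the channel genes (points, where they entered) by subfamily in the 4 comparisons; the dashed line is the median of all genes and the dotted line that of the channel genes. Red diamonds are genes whose neurons did not overlap between the groups: Hcn3 and Kcnab1 in the first panel, Kcnab1 in the second, Kcnk3 and Kcnip1 in the third and Hcn2 in the fourth.

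Only 5 channel genes had values in 1 group that lay wholly outside those of the other in any comparison: Kcnab1, Kcnip1, Kcnk3, Hcn2 and Hcn3. In the pyramidal comparison this held for 0 genes higher and 2 lower in all neurons, where 0.243% and 1.84% of all genes were. In purified against glia-cultured neurons it was 0 and 1, against 0.159% and 1.51% of all genes. With OCM against none it was 2 higher and 0 lower, against 0.817% and 0.233%, and in OCM-treated against glia-cultured neurons 0 and 1, against 0.177% and 0.517%.

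Of the 49 kept genes, all were matched by symbol in RefSeq's rat gene table, and 29 had an entry in its table of promoters (33 promoters, as 4 genes have a second one). Among the 5 genes just named these were Kcnip1, Kcnab1 and Hcn2, whose windows are printed so that the genes that most separated the groups can be compared; Kcnk3 and Hcn3 had none. Each window runs from 250 bases before to 50 after the start, 5′ to 3′ on the gene's strand, in build GRCr8, which is not the build of the expression table, and capitals mark GC boxes (GGGCGG or its reverse complement). The windows are chr10:19092976-19093275 and chr10:18940760-18941059 (minus strand) for Kcnip1, chr2:151614301-151614600 (plus strand) for Kcnab1 and chr7:10639408-10639707 (minus strand) for Hcn2.
Kcnip1, first promoter: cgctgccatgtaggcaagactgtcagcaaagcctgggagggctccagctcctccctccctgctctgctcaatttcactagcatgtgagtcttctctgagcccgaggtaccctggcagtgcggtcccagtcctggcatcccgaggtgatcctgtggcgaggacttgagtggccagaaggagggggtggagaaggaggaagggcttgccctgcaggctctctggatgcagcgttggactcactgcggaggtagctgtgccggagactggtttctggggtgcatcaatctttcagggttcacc
Kcnip1, second promoter: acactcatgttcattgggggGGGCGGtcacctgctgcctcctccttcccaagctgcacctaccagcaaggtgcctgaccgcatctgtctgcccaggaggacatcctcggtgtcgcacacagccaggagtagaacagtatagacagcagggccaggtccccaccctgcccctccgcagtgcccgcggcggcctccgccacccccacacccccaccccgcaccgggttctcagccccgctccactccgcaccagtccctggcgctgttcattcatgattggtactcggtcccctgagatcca
Kcnab1: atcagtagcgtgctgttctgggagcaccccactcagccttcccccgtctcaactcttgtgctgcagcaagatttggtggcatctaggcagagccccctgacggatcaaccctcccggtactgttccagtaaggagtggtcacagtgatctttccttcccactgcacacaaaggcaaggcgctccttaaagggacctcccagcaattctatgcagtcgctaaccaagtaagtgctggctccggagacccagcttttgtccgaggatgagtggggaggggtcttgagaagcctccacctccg
Hcn2: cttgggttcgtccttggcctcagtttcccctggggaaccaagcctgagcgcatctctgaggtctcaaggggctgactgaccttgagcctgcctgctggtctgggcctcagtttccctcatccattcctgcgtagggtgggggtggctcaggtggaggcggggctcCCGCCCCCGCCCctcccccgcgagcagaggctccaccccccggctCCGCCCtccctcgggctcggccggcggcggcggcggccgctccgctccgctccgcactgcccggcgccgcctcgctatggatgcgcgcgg

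The Kcnip1 windows and that of Kcnab1 were poorer in CpG than that of Hcn2, with 8, 15 and 9 CpG dinucleotides against 28, and a GC content of 60.3%, 65.3% and 56.7% against 72.7%. A GC box was found 3 times in the Hcn2 window, once in the second Kcnip1 window, and not in the others. Over the 33 channel promoters the median GC content was 66.0% and the median CpG count 23, where all 33469 promoters of the table had 51.7% and 7. GGGCGG on either strand was in 20 of the 33 (60.6%) and in 33.1% of all promoters. TATAAA was in 0 of 33 and in 14.2% of all, the cAMP response element TGACGTCA in 0 and 1.83%, the AP-1 site TGANTCA in 0 and 7.33%, and the E-box CACGTG in 1 (3.03%), that of Kcne4, and 6.42%. The channel promoters are those of genes detected in at least 3 neurons, and the printed ones those of genes that separated groups, while the set of all promoters has no such filter. Kcne4 was named after its match was seen, and a match of letters shows no binding.

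Kcnip1 encodes a calcium-binding cytoplasmic subunit of the Kcnd channels that carry the A-type current. It spans chr10:18558128-18942677 in rn6, the build of the expression table. Its values in the OCM-treated neurons 1 to 5 were 531, 428, 1289.9, 506 and 2362, and it was at 0 in all 5 purified neurons. In glia-cultured GABAergic neurons 1 to 6 they were 2517, 675, 679, 1444, 1717 and 0, and it was at 0 in all 5 pyramidal neurons. Kcnip1 was thus seen in every OCM-treated neuron and in every glia-cultured GABAergic neuron except number 6, and in none of the others. The means were 1024 ± 826 (SD, 5 neurons) with OCM and 1172 ± 899 (SD, 6 neurons) with glia.

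The OCM-treated neurons together gave 6161 Kcnip1 reads (exact Poisson 95% interval 6008 to 6317, counting error only) and the purified neurons 0, which allows up to 3.69. Against a floor of 3 reads over the purified group, the OCM-treated mean was at least 622-fold higher. Here and below, such a fold is a bound for the counting of reads only. It does not cover transcripts lost in aspiration or amplification, so it is no lower bound on expression. The difference on the log2 scale was 9.67 and stayed between 9.28 and 9.90 when any 1 neuron was left out. As a share of neurons, 5 of 5 stood against 0 of 5. Since each group counts as 1 sample, this describes these neurons only and has no interval. Purified and pyramidal neurons lay below glia-cultured GABAergic neurons by at least 713-fold and 331-fold, both with a log2 difference of -8.56. That comparison rests on the glia-cultured neurons titled P and ech: neuron 6, the one titled S, was at 0, so with S neurons only the difference of purified against glia-cultured was 0.00. OCM-treated against glia-cultured neurons differed by 1.11, and by 9.67 with S neurons only. The Kcnip1 row overlaps that of Kcnmb1, another channel gene, which was at 0 in all 21 neurons. It also overlaps 1 row without a symbol, whose values are not given here.

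Kcnk3 encodes an acid-sensitive tandem-pore leak channel that helps hold the resting potential (chr6:27154280-27190219, rn6). It had 488, 458, 994, 567 and 2063 in the OCM-treated neurons and 0 in all purified and all pyramidal neurons. Among glia-cultured GABAergic neurons only numbers 4 and 5 had it, at 552 and 555, both titled P. The mean with OCM was 914 ± 677 (SD, 5 neurons), from 5559 reads (5414 to 5707, exact Poisson), and lay at least 556-fold above the purified neurons, with a log2 difference of 9.58 (9.22 to 9.76 leaving out any 1 neuron). Against glia-cultured neurons the difference was 6.54 (5.93 to 7.76), with overlapping values.

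Restricted to neurons titled S, OCM-treated against purified neurons gave the same differences for both genes, 9.67 for Kcnip1 and 9.58 for Kcnk3, since every purified neuron was at 0. Interneuron subtype markers moved with the same contrast. The summed level of the 8 listed genes was 8562 to 535322 per OCM-treated neuron (median 181287) and 6811 to 429889 per purified neuron (median 24074). Pvalb, Vip, Cck and Calb2 were at 0 in all OCM-treated neurons and Vip, Calb1 and Calb2 in all purified ones. Sst was 966 to 325053 in the OCM-treated neurons and 2.47, 130.2, 0, 0 and 243977 in purified neurons 1 to 5. Npy was 7270 to 276125 in the OCM-treated neurons and 0, 0, 3964, 0 and 185668 in the purified ones. Reln went the other way, at 0, 327, 0, 612 and 1078 with OCM against 4608, 10623, 10029, 6811 and 244 in purified neurons. Cck was above 0 in purified neurons 1 and 2 (19464 and 28143), and Calb1 in 4 of 5 OCM-treated neurons (1191 to 23555). The part of interneuron subtype in the differences of Kcnip1 and Kcnk3 was not tested.

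**Figure D4:**
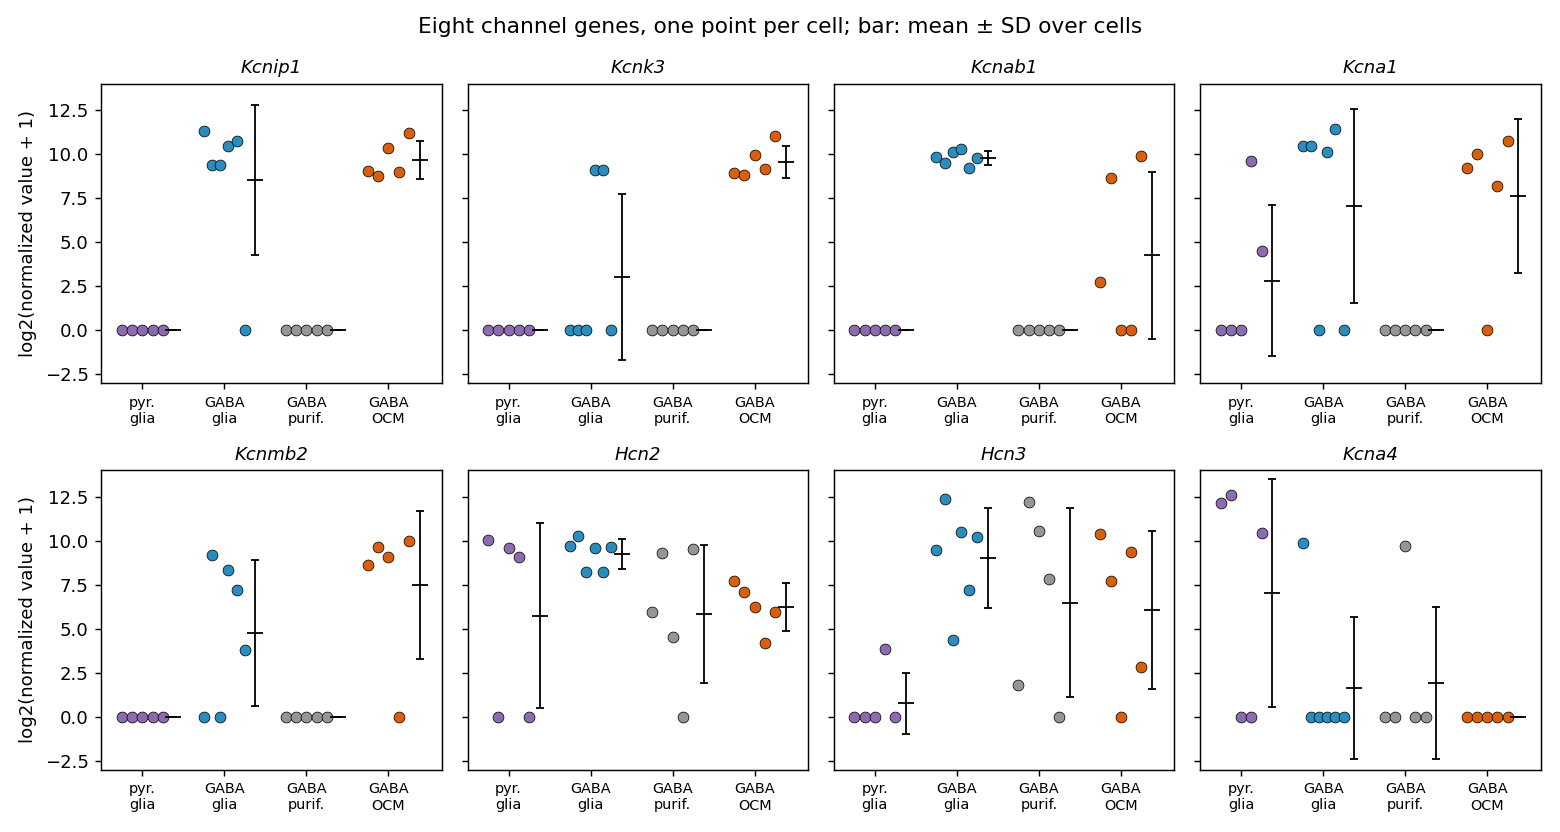
Values of 8 channel genes on the scale log2(normalized value + 1), one point per neuron, by group (pyr. glia and GABA glia: pyramidal and GABAergic neurons grown with glia; GABA purif. and GABA OCM: purified cultures without and with conditioned medium); bars are means ± SD over neurons. Kcnip1 and Kcnk3 separate the OCM-treated from the purified neurons, Kcnab1 the glia-cultured GABAergic from the purified and pyramidal neurons, and Hcn2 the OCM-treated from the glia-cultured neurons.

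The other Kcnip genes showed a different distribution. Kcnip4 was at 0, 963, 1225, 1582 and 0 in purified neurons 1 to 5 and at 0 in all OCM-treated neurons. It was above 0 in 1 glia-cultured GABAergic neuron (867, number 3) and 1 pyramidal neuron (460.0, number 2). Its log2 difference was 4.53 (7.70 with S neurons only) for purified against glia-cultured and -6.16 for OCM-treated against purified neurons. It thus ran opposite to Kcnip1 in both, but with S neurons only Kcnip1 had 0.00 for purified against glia-cultured. No purified neuron held Kcnip1 and no OCM-treated neuron Kcnip4, but glia-cultured GABAergic neuron 3 held both (679 and 867). Kcnip3, a further member of this calcium sensor family, was at 485 and 2502 in pyramidal neurons 4 and 5, at 1.02 in OCM-treated neuron 2, and at 0 elsewhere.

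Kcnd channels are the partners of the Kcnip subunits. Kcnd3, which carries A-type current, was higher in purified neurons, at 3115, 564, 1354, 0 and 353, than in OCM-treated neurons, at 328, 0, 277, 5.25 and 0, with a log2 difference of -4.10 (-6.08 to -3.14 leaving out any 1 neuron) for OCM-treated against purified. Glia-cultured GABAergic neurons had 0, 0, 266, 669, 541 and 2.83, and purified neurons lay 3.18 above them on the log2 scale, or 5.85 with S neurons only. All these ranges overlap. Kcnd2, the other A-type gene named, was above 0 in 4 of 5 OCM-treated neurons (21.7 to 553) but 2 of 5 purified neurons (101 and 1831), with a difference of 1.54, or 3.37 with S neurons only. The pyramidal neurons had Kcnd2 and Kcnd3 in neuron 2 only, at 35.4 and 23.6.

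Kcnab1 encodes a cytoplasmic subunit that speeds the inactivation of Kcna channels (chr2:155718359-156009528, rn6). Its values in glia-cultured GABAergic neurons 1 to 6 were 926, 735, 1103, 1273, 596 and 877. It was at 0 in all 5 purified and all 5 pyramidal neurons, and at 5.81, 394, 0, 0 and 941 in OCM-treated neurons 1 to 5. The glia-cultured GABAergic neurons were alike in Kcnab1, with a mean of 918 ± 245 (SD, 6 neurons), including neuron 6, which lacked Kcnip1. The purified mean lay at least 558-fold and the pyramidal mean at least 260-fold lower, each with a log2 difference of -9.80, and the 2 groups share their comparator.

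With neurons titled S only, the Kcnab1 difference of purified against glia-cultured neurons was -9.78. OCM-treated neurons had a log2 difference of 4.25 from purified and -5.55 from glia-cultured neurons, and their values overlapped with both. Kcnab2, a related subunit, was above 0 in 4 of 6 glia-cultured GABAergic neurons (14.9 to 277), 1 of 5 purified (67.1), 2 of 5 OCM-treated (1.16 and 42.7) and 0 of 5 pyramidal neurons, and its row overlaps that of another named gene. With S neurons only, purified and OCM-treated neurons were above the glia-cultured neuron, by 1.52 and 1.31.

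Kcna channels, the partners of the Kcnab subunits, were detected in 56.7% of gene and neuron pairs in glia-cultured GABAergic neurons, 48.0% in OCM-treated, 28% in purified and 32.0% in pyramidal neurons. Kcna1, a low-threshold channel of axons that limits repetitive firing, had 1419, 1408, 0, 1115, 2783 and 0 in glia-cultured GABAergic neurons. It had 599.7, 1034, 0, 294 and 1746 in OCM-treated neurons and was at 0 in all 5 purified neurons. In pyramidal neurons it had 0, 0, 0, 795 and 21.7. Kcna1 was thus at 0 in every purified neuron, as Kcnip1 was, but also in OCM-treated neuron 3, and it was above 0 in 2 pyramidal neurons. The difference was 7.64 for OCM-treated against purified neurons (6.86 to 9.56), and OCM-treated neurons lay at least 447-fold above. Purified against glia-cultured neurons gave -7.08, and 0.00 with S neurons only, since glia-cultured neuron 6 was at 0.

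Kcna4, an A-type channel of the Kcna family, was the only channel gene higher by at least 2 in pyramidal neurons among those that entered the comparison. It had 4474, 6222, 0, 0 and 1399.9 in pyramidal neurons 1 to 5, and 942 in glia-cultured GABAergic neuron 1 with 0 in the other 5. The log2 difference was 5.39 (4.0 to 7.15 leaving out any 1 neuron) and 3.48 with P neurons only. It was 10.08 without pyramidal neurons 3 and 4, the pyramidal neurons with Mbp, in which Kcna4 was at 0. Kcna6 was above 0 in all 5 OCM-treated neurons (6.20 to 2433), in 4 of 5 purified (2.71 to 2378), in 4 of 6 glia-cultured (56.9 to 803) and in 2 of 5 pyramidal neurons (11.8 and 4394). The difference of OCM-treated against glia-cultured neurons was 2.48, and 7.71 with S neurons only. The difference of pyramidal neurons, -2.07, was -1.26 with P neurons only and 0.03 without neurons 3 and 4.

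Kcnc channels let neurons fire fast by repolarizing quickly and are a feature of many interneurons. Kcnc1 was above 0 in all 6 GABAergic neurons grown with glia, at 191 to 2384, and in all 5 given OCM, at 404 to 1629. In purified neurons it was at 1567, 198, 0, 931 and 0, and in pyramidal neurons at 0, 2725, 0, 474 and 3744. Kcnc1 was therefore seen in every GABAergic neuron that had glia or OCM, and its level in the purified neurons that had it lay in the same range.

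Kcnc2 had 23.2, 215, 2002, 241 and 3645 in OCM-treated neurons, and 674 and 5.6 in purified neurons 2 and 5 with 0 in the other 3. The difference was 6.19 (5.39 to 7.93). Glia-cultured GABAergic neurons had 584, 3522, 0, 272, 666 and 0, and the pyramidal neurons only 122 in neuron 4. For OCM-treated against glia-cultured neurons the difference of means was 2.21, but that of medians -0.72, so no direction holds for this pair, and with S neurons only it was 8.61. Purified against glia-cultured neurons gave -3.98, and 2.35 with S neurons only.

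The modifier genes encode subunits that are silent alone and join Kcnb channels. Of 10 such genes 3 were kept. The kept ones were at 0 in every purified neuron, 0 of 15 pairs. They were above 0 in 6 of 15 pairs with OCM, 7 of 18 with glia and 1 of 15 in pyramidal neurons. For all 49 kept genes the counts were 54 of 245 in purified neurons and 105 of 245, 147 of 294 and 56 of 245 in these groups. Some modifier genes that were not kept were above 0 in purified neurons, at 1.36 to 27.4. Others were above 0 in glia-cultured or pyramidal neurons. The absence from purified neurons thus holds for the kept genes only, and the part of the filter in it was not tested. Kcns3 had 1084, 613 and 3079 in OCM-treated neurons 2, 4 and 5, and 2066 and 1922 in glia-cultured neurons 5 and 6. OCM-treated neurons lay 6.19 above purified ones for Kcns3. Against glia-cultured neurons the difference was 2.53, but -4.72 with S neurons only. Kcng2 was at 859.5 and 1073 in OCM-treated neurons 1 and 5, at 2026, 378 and 858 in glia-cultured neurons 1, 5 and 6, and at 0.624, a value of 2 reads, in pyramidal neuron 4.

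Kcnq5 encodes a subunit of the M-current, which damps firing. It was above 0 in 2 of 5 neurons of the OCM-treated (536 and 1092), purified (151 and 544) and pyramidal groups (629 and 2904), and in 3 of 6 glia-cultured neurons (138 to 502). It was thus scattered over all 4 groups.

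Among the Kcnh genes, the ether-a-go-go family, Kcnh7 was at 504, 0, 983, 0 and 31.0 in OCM-treated neurons, and at 1335 in purified neuron 2 only, a difference of 2.71. It was at 1194, 699 and 1201 in 3 of 6 glia-cultured neurons and at 0 in all pyramidal neurons. Kcnh3 was high in single neurons of 3 groups, at 6216 in pyramidal neuron 2, 1603 in glia-cultured neuron 3 and 910.2 in purified neuron 3. Its only other value was 0.615, or 1 read, in glia-cultured neuron 4. The Kcnh3 row overlaps that of Mcrs1, a different gene.

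Kcnma1, the large-conductance calcium-activated channel that helps end the action potential, was at 6319 and 5.90 in pyramidal neurons 5 and 2. It was also above 0 in 2 of 6 glia-cultured (88.8 and 1032), 3 of 5 purified (14 to 293) and 3 of 5 OCM-treated neurons (1.02 to 349.8). Kcnmb2, an inactivating auxiliary subunit of the Kcnma1 channel, showed a group pattern that Kcnma1 did not. It was at 399.8, 805, 543, 0 and 1022 in OCM-treated neurons and at 0 in all purified and pyramidal neurons, while glia-cultured GABAergic neurons had 0, 588, 0, 327, 148 and 12.7. OCM-treated neurons lay at least 337-fold above purified ones, with a log2 difference of 7.48 (6.85 to 9.35). Kcnn2, a small-conductance calcium-activated channel, was at 3152 in pyramidal neuron 5, at 797 in purified neuron 1, at 207, 505 and 6.93 in glia-cultured neurons 3 to 5, and at 0 with OCM.

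Inward rectifiers were the subfamily least seen with OCM: the 4 kept Kcnj genes were above 0 in 2 of 20 gene and neuron pairs there and in 3 of 20 in purified neurons, against 14 of 24 in glia-cultured GABAergic and 6 of 20 in pyramidal neurons. Over all 49 kept genes it was 105 of 245, 54 of 245, 147 of 294 and 56 of 245 in the same order. Kcnj3, a subunit of the channels that G proteins open in response to neurotransmitters, was at 0, 87.9, 864, 559, 210.2 and 2.83 in glia-cultured GABAergic neurons. Outside them it appeared once, at 8.14 in purified neuron 2. The differences against glia-cultured neurons were -5.84 for OCM-treated and pyramidal neurons and -5.20 for purified ones. With S neurons only they were -1.14 for purified and -1.94 for OCM-treated neurons, and with P neurons only -8.87 for pyramidal ones.

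Kcnj4, a strong inward rectifier, was above 0 in 4 of 6 glia-cultured GABAergic (42.7 to 946), 4 of 5 pyramidal (6.86 to 366), 1 of 5 purified (249.7) and 1 of 5 OCM-treated neurons (87.5). Kcnj6, which joins Kcnj3 in G protein-gated channels, was above 0 in glia-cultured neurons 2 and 3, at 1497 and 11.2, and in 1 neuron of each other group, at 398 to 1159. In all 3 comparisons against glia-cultured GABAergic neurons, each of the 4 kept Kcnj genes had a negative difference, although the sign turned when 1 neuron was left out for Kcnj6 in all 3 and for 2 more in the pyramidal comparison, and 1, 3 and 3 of the 4 were lower by at least 2 in pyramidal, purified and OCM-treated neurons, where 50.6%, 51.7% and 30.4% of all genes were. No Kcnj gene passed the detection filter for OCM-treated against purified neurons.

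The 7 kept Kcnk genes, leak channels, were above 0 in 42.9% of gene and neuron pairs in OCM-treated neurons (15 of 35), 26.2% with glia (11 of 42), and 8.57% in purified and in pyramidal neurons (3 of 35 each). Kcnk3 made up 5 of the 15. Kcnk1, a weakly conducting tandem-pore channel, was at 659, 704, 0, 56.5 and 0 with OCM and at 0 in all purified neurons, a difference of 4.93 (3.80 to 6.17). It was also at 580.0, 737 and 651 in glia-cultured GABAergic neurons 1, 3 and 5 and at 1665 in pyramidal neuron 1. Kcnk13, outside the rule for named genes and chosen after its values were seen, was at 1154 in pyramidal neuron 3, the neuron with the most microglial transcripts. It was also at 1631 in purified neuron 3 and 33.2 in glia-cultured neuron 4, where all 6 microglial genes listed were at 0.

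Hcn2, a type of HCN channel that cyclic AMP readily modulates, had lower values with OCM than with glia (chr7:12851730-12870087, rn6). Its values were 209, 137, 75.8, 17.1 and 62.0 in OCM-treated neurons and 818, 1232, 293, 777, 301 and 796 in glia-cultured GABAergic neurons. All 11 neurons had it, and no OCM-treated neuron reached the lowest of the glia-cultured ones. The means were 100.2 ± 74.3 (SD, 5 neurons) and 703 ± 357 (SD, 6 neurons), a ratio of 0.143, from 819 reads (exact Poisson 764 to 877) and 8027 reads (7852 to 8205). The log2 difference was -3.02 (-3.39 to -2.50 leaving out any 1 neuron), and -3.39 with S neurons only. Since the gene was detected in every neuron of both groups, this difference was one of level and not of detection.

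Purified neurons had Hcn2 at 60.6, 619.8, 21.9, 0 and 735, spanning both ranges, so OCM-treated and purified neurons did not separate (difference 0.40, or -1.07 to 1.31 leaving out any 1 neuron). With S neurons only this difference was 1.31. Pyramidal neurons had 1048, 0, 769.9, 548 and 0. Hcn3 separated pyramidal from GABAergic neurons grown with glia (chr2:188458851-188471916, rn6). Only pyramidal neuron 4 had it, at 13.7, against 722, 5296, 19.9, 1443, 144 and 1177 in the 6 GABAergic neurons, a log2 difference of -8.25 (-9.17 to -7.58). The gap between the highest pyramidal and the lowest GABAergic value was small, 13.7 to 19.9, and the mean was 2.74 ± 6.14 (SD, 5 neurons) against 1467 ± 1957 (SD, 6 neurons). Hcn3 was also above 0 in 4 of 5 purified (2.47 to 4775) and 4 of 5 OCM-treated neurons (6.20 to 1359.9). Hcn4, the slow type of pacemaker tissue, was above 0 in 6 neurons at 2.83 to 146, and in no purified neuron.

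Genes outside the 2 symbol families whose products bind these channels were listed separately: 22 genes, of which 20 were in the table. In pyramidal against glia-cultured GABAergic neurons 14 entered, with a median of -2.72, 1 higher and 9 lower by at least 2, or 7.14% and 64.3%, where 7.47% and 50.6% of all genes were. In purified against glia-cultured neurons 12 entered, with a median of -3.83, 0 higher and 9 lower, or 75% lower against 51.7% of all genes. With OCM against none 8 entered, with a median of 1.55, 3 higher and 1 lower, or 37.5% and 12.5% against 39.3% and 10.1%. With OCM against glia 14 entered, with a median of -1.47, 1 higher and 6 lower, or 7.14% and 42.9% against 11% and 30.4%. The medians of the partners had the same sign as those of the channel genes and of all genes in the 4 comparisons.

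Dlg2, a scaffold protein that clusters Kcna and Kcnj channels, was at 1089, 1177.5, 316, 141, 127 and 191 in glia-cultured GABAergic neurons. It was at 41.0 in purified neuron 5 and 1.02 in OCM-treated neuron 2, and at 0 in the other 8 neurons of those groups. Its differences were -7.31 for purified and -8.19 for OCM-treated against glia-cultured neurons, without overlap in either. Dpp6, an auxiliary subunit of the Kcnd and Kcnip complex, was above 0 in 5 of 5 purified neurons (39.6 to 3194), 3 of 5 OCM-treated neurons (1507 to 2281), all 6 glia-cultured GABAergic neurons (36.8 to 3551) and 3 of 5 pyramidal neurons (142 to 1337). Its log2 difference of OCM-treated against purified neurons was -3.15, beside -6.16 for Kcnip4 and -4.10 for Kcnd3. Kcnip1 and Kcnd2 went the other way, at 9.67 and 1.54. Pex5l, which regulates Hcn channel traffic, was at 0 in all OCM-treated neurons and at 4.94 in purified neuron 1 only, while 4 of 6 glia-cultured GABAergic neurons (1.85 to 1643) and 3 of 5 pyramidal neurons (324 to 2169) had it. Of the 8 partners that entered OCM-treated against purified neurons, 6 had a positive difference and 2, with Dpp6 among them, a negative one. Other partners were seen more often with OCM. Cntn2 was above 0 in 3 of 5 OCM-treated (146 to 365) and 0 of 5 purified neurons. Amigo1 was above 0 in 3 of 5 (33.6 to 1308) and 1 of 5 (524), and Adam23 in 5 of 5 and 4 of 5.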

How the data were processed

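The authors' deposited table gives 1 normalized signal value per gene and neuron, made by dividing read counts by DESeq2 size factors; the submitters' processing notes name STAR 2.4.0, FastQC, Picard, SAMtools, DESeq2 and build rn6. The sources used here do not give the counter, annotation or strand setting. Whole reads were recovered as multiples of the value of 1 read (100% of values within 0.05 of a whole number). Differences are group means of log2(value + 1), over genes above 0 in at least 3 neurons of a pair of groups, in Python 3.11.15 with numpy 2.4.6, pandas 2.3.3 and scipy 1.17.1 (matplotlib 3.10.9 for plots), and the calculation was tested on simulated data. Members named were all Hcn and Kcnip genes, Kcnk3, the 2 members with the highest mean in each other subfamily, and per comparison and direction the 6 whose smallest difference over all fits without 1 neuron was largest, among those above 0 in at least 4 neurons of the higher group. Of these, 4 genes are not reported here. Members and lists were chosen with earlier results of these data known. Intervals cover counting error only, as reads have no molecular identifiers. Alternatives were a pseudocount of 10, no detection filter, scaling to 1 total, thinning to 1817671 reads, medians over neurons, summed rows of a symbol, neurons of 1 title letter, and leaving out neurons.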

Additional observations from a re-analysis of the deposited data

Results flagged for a closer look

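Neurons were compared with the others of their group for each named gene and each score examined (the mean log2 value of the kept genes of a subfamily, or of all members). Of 152 groups examined, 112 for single genes and 40 for scores, 37 had 1 neuron far from the rest; chance gives about 1 in 20 for values without ties, and most of these groups consist of zeros.

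In 4 cases a neuron was at 0 where the others were above it: Kcna1 (0) in OCM-treated neuron 3, Kcnd3 (0) in purified neuron 4, Kcnip1 (0) in glia-cultured GABAergic neuron 6 and Kcnmb2 (0) in OCM-treated neuron 4.

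In 24 cases 1 neuron carried a gene that was at 0 in the others of its group. Among pyramidal neurons these were neuron 1 for Kcnk1 (1665), neuron 2 for Kcnd2 (35.4), Kcnd3 (23.6), Kcnh3 (6216) and Kcnip4 (460.0), neuron 4 for Hcn3 (13.7), Kcnc2 (122) and Kcng2 (0.624), and neuron 5 for Kcnj6 (989) and Kcnn2 (3152). Among glia-cultured GABAergic neurons they were neuron 1 for Kcna4 (942) and neuron 3 for Kcnip4 (867). Among purified neurons they were neuron 1 for Kcnj4 (249.7) and Kcnn2 (797), neuron 2 for Kcnh7 (1335) and Kcnj3 (8.14), neuron 3 for Kcna4 (817) and Kcnh3 (910.2), neuron 4 for Kcnab2 (67.1), and neuron 5 for Kcnj6 (398). With OCM they were neuron 2 for Kcnip3 (1.02) and Kcnj4 (87.5), neuron 3 for Kcnj6 (1159) and neuron 5 for Hcn4 (136).

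In 5 further cases a neuron lay far above others that were not all at 0: Kcnc2 (674) in purified neuron 2, Kcnab2 (42.7) in OCM-treated neuron 4, Kcnh3 (1603) and Kcnj6 (1497) in glia-cultured GABAergic neurons 3 and 2, and Kcnma1 (6319) in pyramidal neuron 5. In 4 cases it was a score. These were Kcnd in pyramidal neuron 2 (3.27), the modifier genes in pyramidal neuron 4 (0.23) and OCM-treated neuron 5 (7.22), and the ion-activated channels in pyramidal neuron 5 (8.08).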

How the results depend on the processing

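No test was made, so a value is called moved where it left the spread between neurons or, for a count, changed by over 1.5 times. No paired analysis was possible because replicate numbers were given in accession order only and pair no neurons. Of the alternative values of the medians and counts, 191 stayed and 25 moved; for named genes, 1616 values stayed, 20 moved and 7 changed direction. In pyramidal against glia-cultured GABAergic neurons, the median was 0.00 and 6 genes were higher without the detection filter, 2 were higher with neurons titled P only and 6 without pyramidal neurons 3 and 4 (Kcna6 then at 0.030), and 1 to 2 were higher leaving out 1 neuron. In purified against glia-cultured neurons, a pseudocount of 10 gave a median of -1.62 and 13 lower genes, no filter a median of -0.27, and neurons titled S only a median of 0.00, 14 higher and 9 lower, with Kcnab2 at 1.52, Kcnc2 at 2.35 and Kcnh7 at 2.60. In OCM-treated against purified neurons, the median was 1.20 with a pseudocount of 10, 0.00 with no filter (5 lower genes), 3.01 with medians over neurons, 2.82 with neurons titled S only and 1.59 to 2.82 leaving out 1 neuron. In OCM-treated against glia-cultured neurons, a pseudocount of 10 gave 2 higher and 6 lower genes, neurons titled S only a median of 1.81 and 17 higher genes (Kcnab2 at 1.31, Kcns3 at -4.72), medians over neurons Kcnc2 at -0.72, and leaving out 1 neuron 2 to 7 higher genes. Without the filter more genes at 0 enter the median, and S neurons leave 1 glia-cultured GABAergic neuron. Other causes were not tested. The counts of higher and lower genes here have no share of all genes beside them, so they show only how the main counts changed. The median of all genes changed as well. For purified and OCM-treated against glia-cultured neurons it was 0.00 and 0.39 with S neurons only, and -1.28 and -0.47 with a pseudocount of 10. The differences of OCM-treated from purified neurons were 6.36 to 9.88 for Kcnip1 and 6.28 to 9.76 for Kcnk3 over the alternatives other than leaving out 1 neuron; as every purified neuron was at 0, their sign could not turn.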
